A study of Mus musculus with 6 samples.

Results

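The cluster of miR-322, miR-503, miR-351, miR-542 and miR-450 is a group of microRNA hairpins on the mouse X chromosome, described here in 3 primary tumors and 3 oviducts. Its members were taken by name from the deposited counts: mmu-miR-322-5p and mmu-miR-322-3p, mmu-miR-503-5p and mmu-miR-503-3p, mmu-miR-542-5p and mmu-miR-542-3p, mmu-miR-351-5p and mmu-miR-351-3p, mmu-miR-450a-5p and mmu-miR-450b-5p, which are 10 of 1915 mouse names. All 10 members had at least 1 count, and 6 passed the low-count filter that left 227 names for testing. The 3p strands of the miR-450 hairpins, which are not members, are given beside them to complete the hairpins. The libraries were built with a TruSeq small RNA kit, so mature microRNA strands were counted, and messenger RNA, Dicer1's included, was not measured.

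The tumors, which the labels call ADT tumors, carried a knocked-out Dicer1 allele beside D1693N (Dicer1ko/D1693N). The oviducts carried a normal Dicer1 allele beside D1693N (Dicer1+/D1693N), so D1693N was common to both groups. No driver, age or strain is given in the labels, and whether each sample is a different animal is not stated. The p-values below therefore set the group difference only against the spread of these samples, and part of that spread may be technical. Tumor state, the missing normal allele and a tag in the column names (1 tag per group) changed together and cannot be told apart.

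MicroRNA hairpins are cut by Dicer into a 5p and a 3p strand. The RNase IIIb domain, in which D1693N lies, cuts on the 5p side, and the RNase IIIa domain cuts on the 3p side. Usually 1 strand of a hairpin, the guide, is kept by Argonaute proteins, and bases 2 to 8 of it, the seed, select target messenger RNAs. The miR-322 hairpin is the mouse counterpart of human miR-424. Its 5p strand carries the seed of the miR-15/16 family, which restrains cell cycle genes, and miR-322 and miR-503 are known for rising in differentiating muscle cells, where Cdc25a is a target. The 5p strand of miR-351 carries the seed of the miR-125 family, and miR-542-3p has been described in human cells as a repressor of survivin.

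The 7 hairpins lie on the minus strand of chromosome X between 53047997 and 53054349 (GRCm38), a span of 6353 bases. In the direction of transcription the order is Mir322 (53054255 to 53054349), Mir503 (53053984 to 53054054), Mir351 (53053255 to 53053353), Mir542 (53049403 to 53049487), Mir450-2 (53048299 to 53048367), Mir450-1 (53048154 to 53048244) and Mir450b (53047997 to 53048078). None of the 7 overlaps another gene of GENCODE M21. A long noncoding RNA gene on the same strand, Gm28730, lies in the gap of 3767 bases between Mir351 and Mir542, and the noncoding gene C430049B03Rik lies 696 bases upstream of Mir322.

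The mature sequences of the strands that carry the results are given first (RefSeq, GRCm38.p6, minus strand), 5′ to 3′ with the seed in capitals, because strands of the same hairpin have unlike seeds and a change of arm is a change of seed.
miR-322-5p: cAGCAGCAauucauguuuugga
miR-322-3p: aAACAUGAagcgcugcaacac
miR-503-5p: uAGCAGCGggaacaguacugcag
miR-503-3p: gAGUAUUGuuuccacugccugg
miR-351-5p: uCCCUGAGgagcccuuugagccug
miR-542-5p: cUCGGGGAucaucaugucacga
miR-542-3p: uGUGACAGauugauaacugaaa
miR-450a-5p: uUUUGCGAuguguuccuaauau
miR-450b-5p: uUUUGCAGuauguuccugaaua
miR-450a-1-3p: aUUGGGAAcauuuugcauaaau
miR-450b-3p: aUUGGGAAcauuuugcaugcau
The seeds of miR-322-5p and miR-503-5p differ at 1 base, A8G, counted from the 5′ end with the miR-322-5p base first. The seeds of miR-450a-5p and miR-450b-5p differ at 2 bases, G7A and A8G, while miR-450a-1-3p and miR-450b-3p share theirs. No other seed is shared between strands of the cluster.

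The hairpins of miR-322 and miR-503 show how far apart the strands lie, with both mature strands in capitals, the 5p strand first and the loop between them.
Mir322: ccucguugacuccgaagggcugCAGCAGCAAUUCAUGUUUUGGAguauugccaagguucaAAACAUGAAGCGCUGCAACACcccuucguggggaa
Mir503: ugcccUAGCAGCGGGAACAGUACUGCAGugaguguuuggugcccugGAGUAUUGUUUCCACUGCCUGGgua

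Mouse microRNA counts per library ran from 154002 to 272167 for the tumors and from 297039 to 580390 for the oviducts. Members took 0.259% ± 0.117 of the counts in the tumors and 0.194% ± 0.0381 in the oviducts (SD, n = 3 each). Levels are given in CPM, counts scaled to a common library size with TMM factors, on which a count of 3 corresponds to between 12.9 and 15.1 CPM in the tumors and between 5.48 and 11.9 CPM in the oviducts. The smooth muscle strand miR-143-3p alone took between 13.9% and 60.9% of the counts in the tumors and between 44.1% and 47.2% in the oviducts. Among lists of cell type markers, the multiciliated list summed to between 422 and 1209 CPM in the tumors and between 14867 and 21618 CPM in the oviducts, with 3 of 5 tested members lower and miR-449b at 0 in both groups. The smooth muscle and fibroblast list lay between 94643 and 835521 CPM in the tumors and between 489781 and 557882 CPM in the oviducts, with 2 of 4 lower. The epithelial list had 3857 to 7015 CPM in the tumors and 6941 to 11969 CPM in the oviducts, with 1 of 5 lower. The endothelial list had 15198 to 20196 CPM in the tumors and 7146 to 9548 CPM in the oviducts, with 2 of 2 higher. These 2 are the strands of 1 hairpin, miR-126a, and so not separate markers. The leukocyte list lay between 1430 and 7316 CPM in the tumors and between 1427 and 2404 CPM in the oviducts. The skeletal muscle list lay between 39.6 and 715 CPM in the tumors and between 581 and 964 CPM in the oviducts, with miR-206-3p at 0 in the oviducts. Beside these counts, 26.9% of all 227 tested names were called higher and 25.6% lower. The part of these lists in the results below was not tested. In bulk samples fewer cells of a type and less RNA per cell cannot be told apart.

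Whole-cluster output was compared first. The summed level overlapped between the groups, and the make-up of the sum differed. The 10 members together had 1813, 2138 and 2458 CPM in tumors 1, 2 and 3, against 1980, 2519 and 2052 CPM in oviducts 1, 2 and 3. These ranges overlapped, and the means were 2136 ± 322 CPM in the tumors and 2184 ± 293 CPM in the oviducts (SD, n = 3 each), a log2 difference of -0.03. That difference depended on the scaling, at 0.42 with library totals alone and -0.94 with TMM factors from 3p names.

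The 5p members summed to 584, 1022 and 1433 CPM in the tumors, against 1802, 2311 and 1866 CPM in the oviducts, so that every tumor lay below every oviduct on this scaling (log2 of the ratio of means -0.98). With library totals alone the groups overlapped (log2 -0.44). The values were 426, 1348 and 2117 CPM in the tumors against 1539, 2181 and 1589 CPM in the oviducts. With TMM factors from 3p names the log2 value was -1.91. On the main scaling the mean 5p sum was 1013 CPM in the tumors and 1993 CPM in the oviducts. The means of miR-351-5p alone were 390 and 1461 CPM. Those of miR-322-5p were 565 and 488 CPM, and its ranges overlapped. The lower 5p sum thus lay in miR-351-5p and was not shared by miR-322-5p. The 3p members summed to 1229, 1116 and 1024 CPM in the tumors, against 178, 208 and 186 CPM in the oviducts, so that every tumor lay above every oviduct (log2 2.56, and 1.68 with TMM factors from 3p names). As a share of the cluster's counts, which needs no scaling between libraries, the 3p members took 67.8%, 52.2% and 41.7% in the tumors, against 8.98%, 8.26% and 9.06% in the oviducts. The oviducts were nearly alike in this share and the tumors were spread, with tumor 1 highest. The share joins arm use with changes between hairpins, so it is not a measure of arm use alone. On average miR-351-5p, whose hairpin had almost no 3p counts, took 17.7% in the tumors and 66.9% in the oviducts. The hairpins of miR-503 and miR-542 were mostly 3p in the oviducts already. Their 3p strands took 13.9% and 11.8% in the tumors, against 0.398% and 0.849% in the oviducts.

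**Figure D1:**
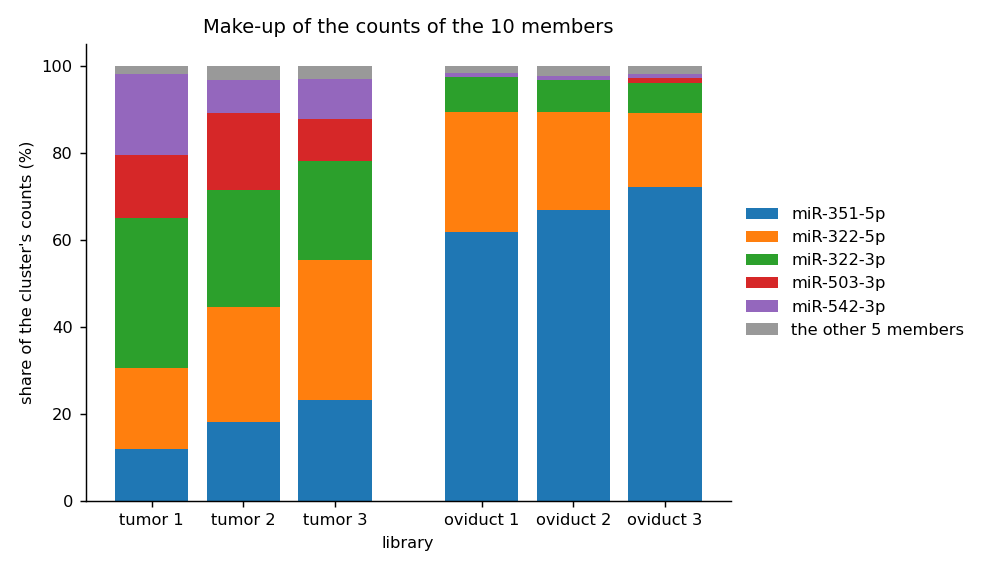
Share of the counts of the 10 members (percent, vertical axis) taken by each strand in each library, tumors left and oviducts right. The blue segment, miR-351-5p, makes up 11.9% to 23.1% of the tumor bars and 61.7% to 72.1% of the oviduct bars, while miR-322-3p, miR-503-3p and miR-542-3p are larger in every tumor than in every oviduct.

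The 3p strands of miR-322, miR-503 and miR-542 rose in the tumors, miR-351-5p fell, and miR-322-5p and miR-450a-5p were not called. Of the 6 tested members 3 were higher and 1 lower (edgeR's quasi-likelihood test, Benjamini-Hochberg adjusted p under 0.05). Over all 227 tested names 26.9% were higher and 25.6% lower. By arm, 3 of 3 tested 3p members were higher, beside 41.8% of all tested 3p names, and 1 of 3 tested 5p members was lower, beside 48.4% of all tested 5p names. The strands miR-503-3p and miR-542-3p passed the low-count filter only through the tumors, where they were high. Being tested and being higher were thus not independent for them, and 3 of 3 is not read as a result. The CPM ranges of the groups did not overlap for 4 of the 6, as for 60.4% of all tested names. Log2 fold changes are tumor over oviduct, and their medians were -1.04 for all tested 5p names and 0.89 for all tested 3p names, so the members' values below are read beside these.

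Among the guide strands of known seed families, miR-322-5p was not called. It had 337, 567 and 791 CPM in the tumors, against 546, 568 and 352 CPM in the oviducts. The groups overlapped throughout, with the highest and the lowest library both tumors. Its means were 565 ± 227 CPM in the tumors and 488 ± 119 CPM in the oviducts (SD, n = 3 each). The log2 fold change was 0.21 (SE 0.38), with an adjusted p of 0.657 by edgeR. The direction turned with TMM factors from 3p names (log2 -0.74) and without tumor 3 (log2 -0.24) or oviduct 3 (log2 -0.27), in none of which it was called.

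The miR-125-seed strand miR-351-5p was the most counted member in the oviducts and fell in the tumors. It had 217, 386 and 567 CPM in the tumors, against 1222, 1683 and 1478 CPM in the oviducts. Every tumor lay below every oviduct, tumor 1 furthest. The fall was 3.74-fold (log2 -1.90, SE 0.39, edgeR adjusted p = 0.00246), and with library totals alone it narrowly missed the threshold (log2 -1.37, adjusted p = 0.0502). With TMM factors from 3p names it was larger (log2 -2.83, edgeR adjusted p = 0.000398). Set against its neighbour miR-322-5p in the same library, which needs no scaling, miR-351-5p had 0.642, 0.682 and 0.717 counts per count of miR-322-5p in tumors 1, 2 and 3. In oviducts 1, 2 and 3 it had 2.24, 2.96 and 4.20. The tumors thus lay close together in this ratio and below every oviduct.

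The 3p strand of miR-322, the passenger of the hairpin in the oviducts, rose in the tumors. It had 624, 575 and 558 CPM in the tumors, against 159, 186 and 142 CPM in the oviducts. The tumors were tightly grouped above all oviducts. The rise was 3.59-fold (log2 1.84, SE 0.33, edgeR adjusted p = 0.00111), and with TMM factors from 3p names it was smaller but still called (log2 0.95, adjusted p = 0.0380).

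The 3p strand of miR-503 was close to the detection limit in the oviducts. It had 52, 88 and 54 counts in the tumors, against 1, 1 and 5 counts in the oviducts, or 262, 378 and 237 CPM in the tumors against 3.12, 1.83 and 19.8 CPM in the oviducts. Tumors and oviducts were far apart, and 5 of the 7 oviduct counts came from oviduct 3. The fitted log2 fold change was 5.31 (SE 0.81, edgeR adjusted p = 0.000473), a 39.6-fold rise, and it was 4.59, 4.58 and 6.41 without oviducts 1, 2 and 3 and 4.50 with TMM factors from 3p names. The pooled counts of 194 in the tumors and 7 in the oviducts gave a ratio of 47.2 on the same scaling, with an exact 95% interval of 22.5 to 119 that covers counting error only.

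The 3p strand of miR-542, which already held most of that hairpin's counts in the oviducts, rose as well. It had 67, 38 and 52 counts in the tumors, against 5, 11 and 5 counts in the oviducts, or 337, 163 and 229 CPM in the tumors against 15.6, 20.1 and 19.8 CPM in the oviducts. No tumor overlapped an oviduct, and tumor 1 was highest. The rise was 12.8-fold (log2 3.68, SE 0.57, edgeR adjusted p = 0.000519), and the log2 value was 2.80 with TMM factors from 3p names. In all scalings and filters tried, and without each library in turn, the 3 rises of miR-322-3p, miR-503-3p and miR-542-3p were called. Over all names, 61 of 227 were higher in the main fit. With TMM factors from 3p names 42 of 227 were higher, and with no low-count filter 98 of 919. Because miR-503-3p and miR-542-3p passed the main filter only through the tumors, these repeated calls are not read as a result about the members.

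Ratios between 3p strands, which need no scaling, were also taken within each library. For each count of miR-322-3p in the same library there were 0.419, 0.657 and 0.425 counts of miR-503-3p in the tumors, against 0.0196, 0.00980 and 0.139 in the oviducts. There were 0.540, 0.284 and 0.409 counts of miR-542-3p in the tumors, against 0.0980, 0.108 and 0.139 in the oviducts. Every tumor lay above every oviduct in both ratios. Both numerators passed the low-count filter only through the tumors, so these ratios are given as values and not read as a result. Between miR-542-3p and miR-503-3p themselves the ratio was 1.29, 0.432 and 0.963 in the tumors, against 5, 11 and 1 in the oviducts, where miR-503-3p had 1 to 5 counts, and the groups overlapped.

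**Figure D2:**
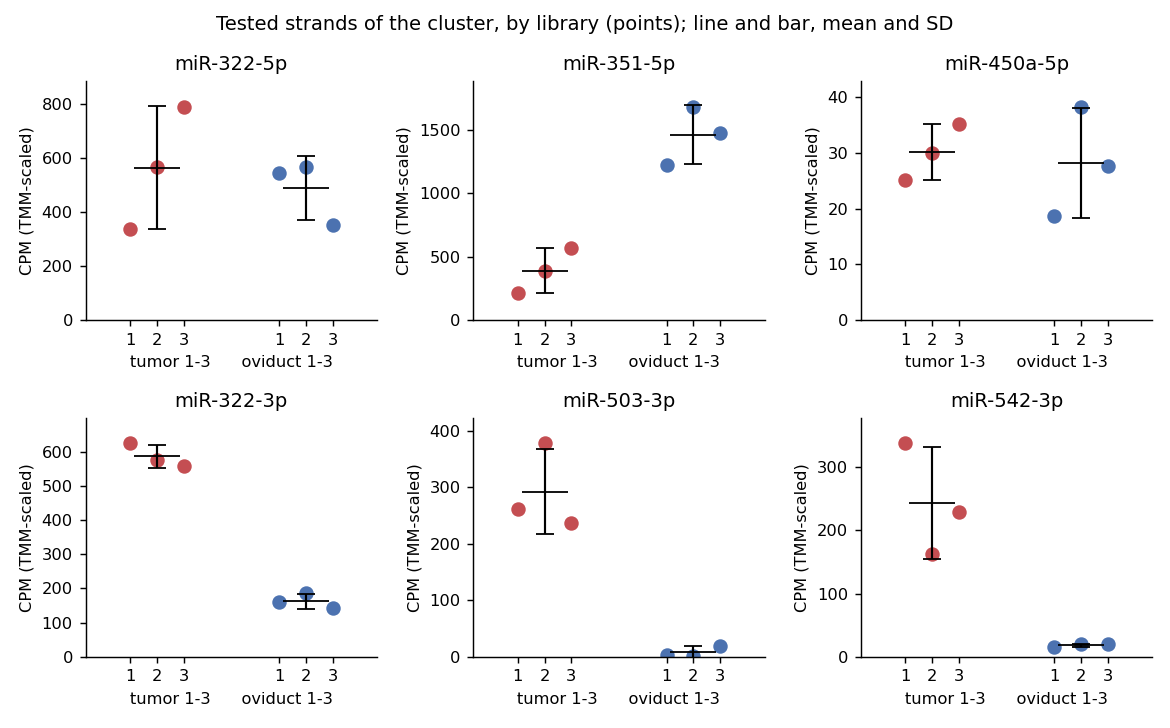
Level of the 6 tested strands in CPM (TMM-scaled, vertical axes from 0) in each library, tumors in red on the left and oviducts in blue on the right, with the mean and SD of each group. The 3 lower panels, all 3p strands, show every tumor above every oviduct, miR-351-5p shows every tumor below, and miR-322-5p and miR-450a-5p overlap.

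The remaining strands were counted too rarely for firm statements. Pooled over the libraries of a group, miR-503-5p had 7 counts in the tumors and 2 in the oviducts, a scaled ratio of 5.96 with an exact 95% counting interval of 1.13 to 58.8. The 5p strand of miR-542 had 3 counts in the tumors and 5 in the oviducts (ratio 1.02, interval 0.159 to 5.25), and miR-351-3p had 1 in each group. For miR-503-5p the interval lies above 1, with 2 of the 3 oviducts at 0 counts, and it covers counting error only. For miR-542-5p and miR-351-3p a difference was not detectable at these counts.

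The miR-450 hairpins, at the far end of the cluster, were not called on the 5p strand. The strand miR-450a-5p, which 2 hairpins encode identically, had 25.2, 30.1 and 35.2 CPM in the tumors, against 18.7, 38.3 and 27.7 CPM in the oviducts, and was not called (log2 0.07, SE 0.44, edgeR adjusted p = 0.997). Its close relative miR-450b-5p had 0, 4 and 5 counts in the tumors, against 3, 8 and 1 in the oviducts. Their 3p strands had counts in tumor libraries and in no oviduct library. The strand miR-450a-1-3p had 3, 2 and 2 counts in the tumors and 0 in each oviduct. It was 3.97-fold higher when the oviducts are set at a floor of 3 counts over the group, with an exact lower limit of 2.45. Likewise miR-450b-3p had 3, 4 and 2 counts in the tumors and 0 in each oviduct, 5.11-fold higher on the same floor, with an exact lower limit of 3.36. The strand miR-450a-2-3p had 0 counts in all 6 libraries.

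The next question was how the strands of each hairpin shared its counts. The 5p:3p ratio, taken as log2 of (5p count + 0.5) over (3p count + 0.5), fell in the tumors in 4 of the 4 hairpins tested (limma, adjusted p under 0.05). It fell in 47.2% and rose in 4.23% of all 142 hairpins tested, with a median log2 change of -1.53, and 56.3% of the 142 had ratio ranges that did not overlap between the groups. Some of the 142 had almost no counts on 1 arm, so their ratio followed the unscaled counts of the other. For example, miR-375 was called as rising with 0 5p counts in both groups and 36 3p counts in the tumors against 1696 in the oviducts. In the order of all 142 from the largest fall, miR-542 stood at 30, miR-503 at 37, miR-351 at 45 and miR-322 at 68. All 4 thus lay in the upper part of that order, with miR-322 close to its middle. Of these, miR-503 and miR-542 reached the minimum mean total only through the tumors, where their 3p strands were high. The miR-351 ratio followed its 5p counts alone. The count of 4 of 4 is therefore not read as a result about arms. With a pseudocount of 0.1 in place of 0.5, 1 of the 4 was called, miR-542, and an edgeR interaction of arm and group called 2, miR-322 and miR-542.

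Only miR-322 had many counts on both arms in both groups. Its 5p strand took 35.1% (exact 95% interval 28.3 to 42.3), 49.6% (43.5 to 55.8) and 58.6% (52.9 to 64.2) of the hairpin's counts in the tumors. In the oviducts it took 77.4% (71.4 to 82.7), 75.3% (70.8 to 79.4) and 71.2% (62.4 to 78.9). Every tumor lay below every oviduct, and the tumors differed more from each other than the oviducts did. Its change on the log2 scale was -1.69 (SE 0.60), or 3.23-fold down, with a limma adjusted p of 0.0390, beside the median of -1.53. The limma call was lost with a pseudocount of 0.1 (adjusted p = 0.0673) and without tumor 1, tumor 2 or any oviduct, with log2 values between -1.82 and -1.32. The edgeR interaction called it (log2 -1.69, adjusted p = 0.0155).

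In miR-542 the 5p strand took 0 of 67, 2 of 40 and 1 of 53 counts in the tumors, against 2 of 7, 2 of 13 and 1 of 6 in the oviducts. Pooled, that is 1.88% in the tumors and 19.2% in the oviducts, an odds ratio (oviduct over tumor) of 12.2 with an exact 95% interval of 2.19 to 84.0 for counting error. In the limma fit the log2 change was -3.65 (SE 0.81, adjusted p = 0.00381), and it was -2.80 without tumor 1, -4.37 without tumor 2, -4.41 with a pseudocount of 0.1 and -2.42 with one of 5. This change rests on 8 counts of the 5p strand in all.

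For miR-503 and miR-351 the ratio hangs on a handful of counts. The miR-503 hairpin had 7 5p beside 194 3p counts in the tumors and 2 beside 7 in the oviducts, and both 5p counts of the oviducts were in oviduct 2. Its odds ratio was 7.74 with an exact 95% interval of 0.670 to 52.8, and the limma call (log2 -3.15, SE 0.95, adjusted p = 0.0184) was lost without oviduct 2 (log2 -2.06), while the log2 change was -4.16 without oviduct 3. The miR-351 hairpin had 262 5p beside 1 3p count in the tumors and 1688 beside 1 in the oviducts. The 3p count fell in 1 library of each group, so the 3p strand added the same to both group means. The hairpin's log2 change of -2.69 (limma adjusted p = 0.0391) was therefore the fall of its unscaled 5p counts, and it shows no change of arm. The odds ratio of 6.43 had an interval of 0.0818 to 504. The call was lost without tumor 1, oviduct 1 or oviduct 2 (log2 between -2.62 and -1.72), and the change was larger, with the call kept, without tumor 2 (log2 -3.04), tumor 3 (log2 -3.30) or oviduct 3 (log2 -3.44).

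The miR-450 hairpins had under 20 counts a library on average and were not tested for the ratio. Pooled over libraries and copies, miR-450a had 20 5p beside 7 3p counts in the tumors and 34 beside 0 in the oviducts, a 5p share of 74.1% in the tumors and 100% in the oviducts. For miR-450b the tumors had 9 counts on each arm, and the oviducts had 12 beside 0.

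**Figure D3:**
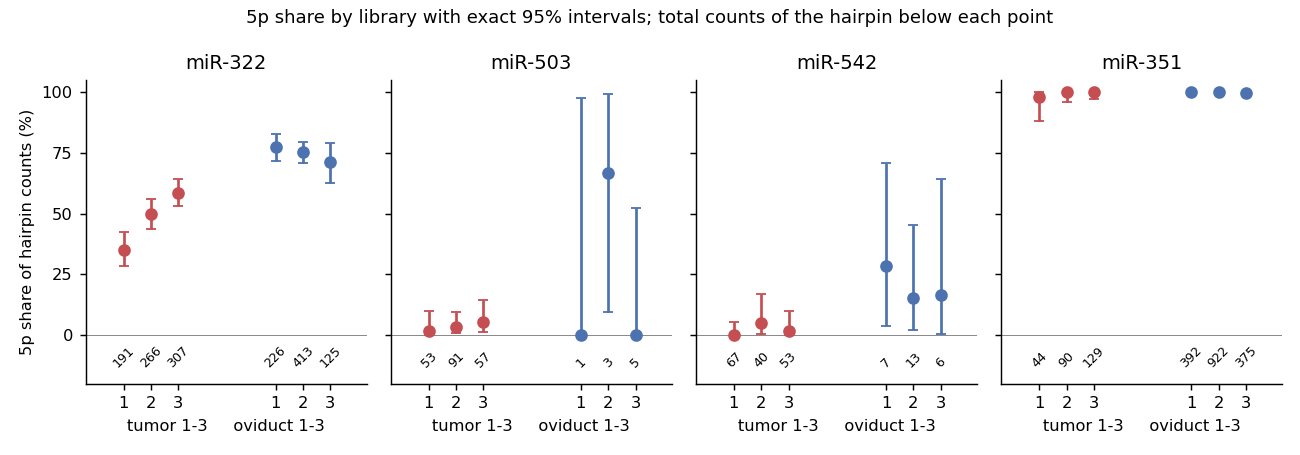
Share of each hairpin's counts on the 5p strand (percent, vertical axis) in each library with exact 95% binomial intervals, tumors in red and oviducts in blue, and the hairpin's total counts printed under each point. The miR-322 tumors lie at 35.1% to 58.6% and its oviducts at 71.2% to 77.4%, while the oviduct intervals of miR-503 and miR-542 are wide because those hairpins had 1 to 13 counts there.

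Both strands were then summed per hairpin and tested over all 183 hairpins and names without an arm that passed the filter. Of the 5 tested hairpins of the cluster 3 were higher in the tumors, miR-503, miR-542 and miR-322, 1 was lower, miR-351, and miR-450a was not called (edgeR's quasi-likelihood test). Over all 183, 39.9% were called, 22.4% higher and 17.5% lower, with a median log2 change of 0.20. The CPM ranges of the groups did not overlap in any of these 5 hairpins, and in 55.7% of all 183. Here too miR-503 and miR-542 passed the filter only through the tumors, so the count of higher totals is not read as a result.

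The miR-503 total was 293, 393 and 251 CPM in the tumors, against 2.97, 5.18 and 19.6 CPM in the oviducts (log2 5.16, SE 0.70, edgeR adjusted p = 0.000896). It was 4.56 without oviduct 1 and 5.83 without oviduct 3. The miR-542 total was 370, 173 and 234 CPM in the tumors, against 20.8, 22.4 and 23.6 CPM in the oviducts (log2 3.51, SE 0.52, adjusted p = 0.00144 by edgeR). With TMM factors from 3p names these log2 values were 4.25 for miR-503 and 2.52 for miR-542, both still called. Both hairpins were thus scarce in the oviducts on either arm, and their rarely counted 5p strands were not tested singly.

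The miR-322 total was 1056, 1148 and 1354 CPM in the tumors, against 671, 713 and 491 CPM in the oviducts. It was 1.89-fold higher (log2 0.92, SE 0.27, edgeR adjusted p = 0.0240), but this call was lost without any single library (log2 0.55 to 0.90), with either other filter (log2 0.44 and 0.68) and with library totals alone (log2 1.28), and the value turned to -0.10 with TMM factors from 3p names. The miR-351 total, nearly all 5p, was 243, 388 and 569 CPM in the tumors, against 1163, 1592 and 1474 CPM in the oviducts. It was 3.51-fold lower (log2 -1.81, SE 0.35, edgeR adjusted p = 0.00478), and with library totals alone the call was lost (log2 -1.37, adjusted p = 0.0563), while TMM factors from 3p names gave log2 -2.82. For miR-450a the total was not called (log2 0.61, SE 0.43, edgeR adjusted p = 0.261).

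**Figure D4:**
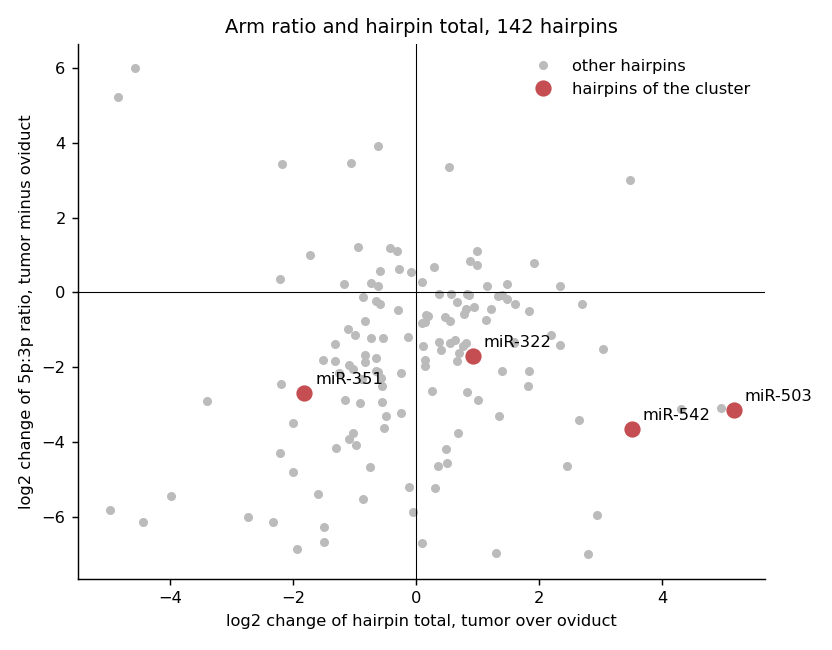
Log2 change of the 5p:3p ratio (vertical axis, tumor minus oviduct) against log2 change of the hairpin total (horizontal axis, tumor over oviduct) for 142 hairpins, the 4 hairpins of the cluster in red. All 4 lie below 0 on the vertical axis, as do 115 of the 142 hairpins. On the horizontal axis the 4 reach from -1.81 for miR-351 to 5.16 for miR-503. The hairpins miR-503 and miR-542 reached the minimum mean total only through the tumors. The vertical place of miR-351 follows its unscaled 5p counts, because its 3p strand had 1 count in each group.

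Strands outside the cluster that share a seed with a member show what each strand adds to its seed family. The miR-15/16 seed of miR-322-5p occurs in 9 other mouse names of the table, of which 5 were tested, and 1 of these fell, beside 48.4% of all tested 5p names. That was miR-497a-5p, with 104 ± 25.7 CPM in the tumors and 509 ± 56.2 CPM in the oviducts (n = 3 each). Its log2 fold change was -2.29 (SE 0.37; adjusted p = 0.000708 by edgeR). The others, miR-15a-5p (log2 -0.23), miR-15b-5p (log2 0.37), miR-16-5p (log2 0.73) and miR-195a-5p (log2 -0.71), were not called. Most of the family's counts were miR-16-5p. The share of miR-322-5p in the counts with this seed was 7.39%, 4.63% and 12.3% in the tumors, against 10.5%, 8.23% and 6.47% in the oviducts. These ranges overlapped, with tumor 2, the library richest in miR-16-5p at 10579 CPM, lowest.

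The miR-125 seed of miR-351-5p occurs in 4 other names, of which 2 were tested and both fell, beside the same 48.4% of all tested 5p names, whose median log2 fold change was -1.04. The 5p strand of miR-125a had 784 ± 158 CPM in the tumors and 3153 ± 929 CPM in the oviducts (log2 -2.01, SE 0.36, edgeR adjusted p = 0.00127). The 5p strand of miR-125b had 210 ± 63.0 CPM in the tumors and 2696 ± 800 CPM in the oviducts (log2 -3.69, SE 0.41, edgeR adjusted p = 6.98e-05). All counts with this seed together came to 1168, 1498 and 1490 CPM in the tumors, against 7758, 8769 and 5404 CPM in the oviducts. Within that smaller pool miR-351-5p took 18.5%, 25.8% and 38.1% in the tumors, against 15.8%, 19.2% and 27.4% in the oviducts, and the groups overlapped. The seeds of the other tested members, miR-322-3p, miR-503-3p, miR-542-3p and miR-450a-5p, were found on no other mouse strand of the RefSeq table.

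**Figure D5:**
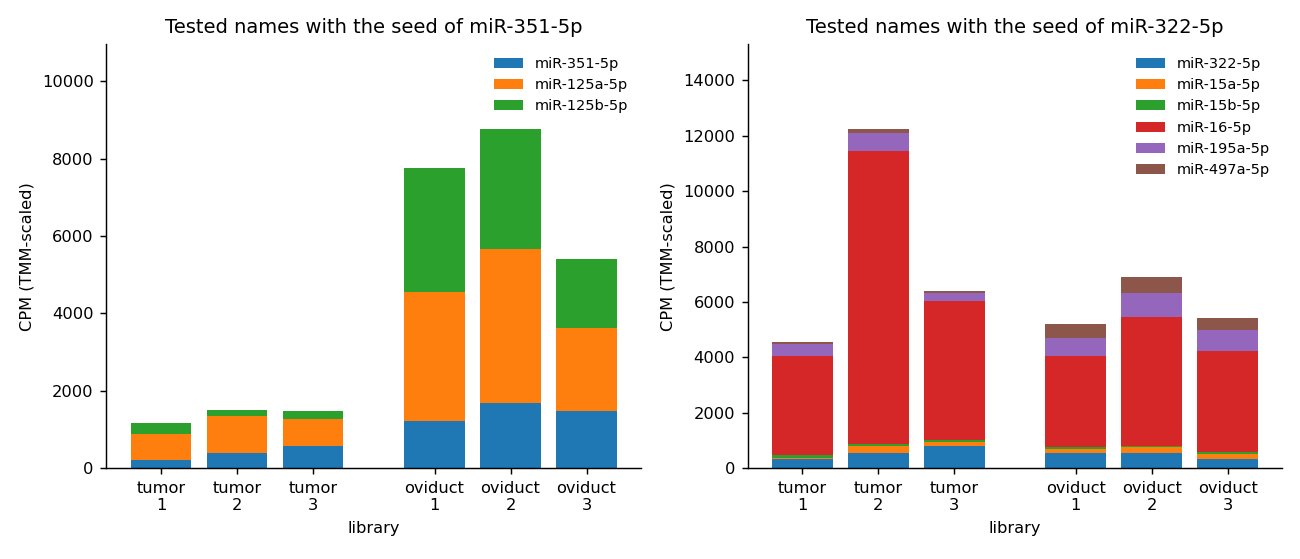
Stacked level in CPM (TMM-scaled, vertical axes from 0) of the tested names that share the seed of miR-351-5p (left) and of miR-322-5p (right) in each library, tumors left of oviducts. The left bars reach 1168 to 1498 CPM in the tumors and 5404 to 8769 CPM in the oviducts, while the right bars overlap between the groups and are mostly miR-16-5p.

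Names with the most similar pattern over the 6 libraries were found by the root mean square difference of log2 CPM after each profile was centred on its own mean. For the summed 5p members these were miR-200b-3p, miR-200c-3p and miR-676-3p, at 0.21, 0.25 and 0.28, where the median of 221 names was 0.99. The closest, miR-200b-3p, an epithelial microRNA, had 705, 1133 and 1666 CPM in the tumors, against 1537, 2974 and 1720 CPM in the oviducts. For the summed 3p members they were miR-214-3p at 0.30 and the pair let-7a-1-3p and let-7c-2-3p, whose counts are identical, at 0.32, where the median was 1.50. The closest, miR-214-3p, a microRNA of stromal cells, had 1052, 1404 and 1697 CPM in the tumors, against 203, 204 and 206 CPM in the oviducts. Of 12 other tested names annotated to the X chromosome 3 were higher and 3 lower, close to the 26.9% and 25.6% of all tested names, and some of the 12 also have a copy on another chromosome.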

How the data were processed

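Per the labels' protocols, total RNA was extracted with a miRNeasy kit and sequenced as TruSeq small RNA libraries. The submitters' processing notes name cutadapt, and per the file headers the deposited counts were made from trimmed, aligned reads. They are raw counts per mature name, not normalized. The aligner, counter, microRNA reference and build: not given in the sources used here. Counts on 67 names of other species (10 in all) were left out.

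Strands and hairpin totals (5p + 3p, copies pooled) were tested with edgeR 4.0.16 in R 4.3.3 (filterByExpr, minimum count 10, TMM, robust quasi-likelihood). SEs come from the unshrunken coefficient and its F. Ratios were tested with limma 3.58.1 at a mean total of at least 20 counts. All p-values are two-sided and adjusted over all features tested, with a threshold of 0.05. The tests were also run on simulated counts with known changes, drawn from the oviduct means with a common dispersion. That setting lacks the broad shift between arms and the larger spread of the tumors seen here. Intervals at 95% (Clopper-Pearson, exact Poisson, Fisher's conditional odds ratio) and floors of 3 counts describe counting error alone, because amplified reads lacking molecular identifiers are not independent. CPM, means and SDs use TMM-scaled library sizes.

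RefSeq sequences (GRCm38.p6) matched all 13 strands and 1623 of 1915 mouse names. Positions are from GENCODE M21 (GRCm38). The members, marker lists, seed families and rule for similar patterns were chosen with earlier results of these data known. Named microRNAs were all members, the other strands of their hairpins, names sharing a seed, and the 3 nearest profiles per arm. The marker lists were multiciliated, smooth muscle and fibroblast, epithelial, endothelial, leukocyte and skeletal muscle. No library repeated another of its group (chi-square per degree of freedom at least 24.4). Alternatives were DESeq2 1.42.0, other scalings, filters and pseudocounts, the interaction model, a block for the replicate number, and each library left out in turn.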

Additional observations from a re-analysis of the deposited data

How the results depend on the processing

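Strands called were 3 higher and 1 lower under each alternative except library totals alone, which gave 0 lower, and no low-count filter, which gave 4 higher (miR-450b-3p added). Hairpin totals gave 1 lower except with library totals alone (0). Leaving out each library gave 3 and 3 higher strands (lowest and highest), 1 lower strand, 2 higher totals and 1 lower total throughout. The number of cluster hairpins with a fallen ratio, 4, was 1 with a pseudocount of 0.1, 2 at a minimum mean of 50 counts, 2 by the edgeR interaction, 6 at a minimum mean of 5 counts, and 1 to 4 without single libraries. At a minimum of 50 counts, miR-503 and miR-542 were no longer tested.

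The log2 difference of summed output was 0.42 (all), -0.44 (5p) and 2.94 (3p) with library totals alone, and -0.94, -1.91 and 1.68 with TMM factors from 3p names. The 3p value was 2.69 with upper-quartile factors. Without single libraries the lowest and highest values were -0.40 and 0.024 (all), -1.44 and -0.91 (5p), and 2.19 and 2.61 (3p). The median log2 change of all tested names was 0.20 with TMM, 0.65 with library totals and -0.73 with TMM factors from 3p names.

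Values that turned sign without being called were those of miR-322-5p (-0.74 with TMM factors from 3p names, -0.14 with no low-count filter, -0.056 at a minimum of 10 CPM, and -0.27 to 0.27 without single libraries) and miR-450a-5p (-0.82, -0.28 and -0.23 in the same order, and -0.45 to 0.29). The totals of miR-322 and miR-450a turned to -0.10 and -0.38 with TMM factors from 3p names. The cause was not tested.

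No pairing by replicate number was seen (same-number correlations of deviations -0.07, 0.04 and -0.13). With so few libraries per group these values cannot exclude pairing. With the replicate number as a block, strand calls were 3 higher and 1 lower, totals 2 higher and 1 lower, and 2 ratios fell, miR-503 and miR-542. Depth limits the ratios of miR-503, miR-542 and miR-351, whose rarer strands had 9, 8 and 2 counts over all libraries.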
